A study of Homo sapiens with 3 samples.

Results

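The cells described here are 184 of 9219 cells from day 5 of a chemical conversion of human fibroblasts, and they are the ones with the most RNA of RELN and NXPH1. A cell is a droplet barcode with at least 2155 unique molecular identifiers (UMIs, each 1 captured RNA molecule), at least 300 genes and at most 20% of UMIs in mitochondrial genes. The 184 cells hold at least 1 UMI of each gene and lie in the top 3% of cells by the share of UMIs in both genes summed. The top 3% held 276 cells, of which 91 had NXPH1 without RELN and 1 had RELN without NXPH1. These 92 were not chosen and were counted among the other cells. RELN and NXPH1 therefore chose the cells and are given only as a description.

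The series follows BJ cells, an established wild-type human foreskin fibroblast line, through a change to cells called FiNs, labelled as induced neuron cells. Single-cell counts are given for BJ cells on day 0 and for wild-type FiN cells on day 3 and day 5, with 1 library each and no replicate. The labels carry the same protocol for all 3 libraries: an induction medium with forskolin, an activator of adenylyl cyclase, then from day 2 a maturation medium with forskolin, which was withdrawn on day 5. All files hold gene counts, yet the protocols describe nuclei prepared with an ATAC kit on days 0 and 3, and whole dissociated cells with gene expression and ATAC kits on day 5. Day and preparation therefore cannot be told apart.

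RELN encodes reelin, a large secreted glycoprotein that binds the receptors VLDLR and LRP8 on receiving neurons and acts there through the adaptor DAB1. NXPH1 encodes neurexophilin 1, a secreted ligand of alpha-neurexins, which are presynaptic adhesion proteins. Reelin is made by Cajal-Retzius neurons of the developing cortex and by several classes of inhibitory neuron. In the spinal cord and hindbrain, classes of inhibitory neuron carry the transcription factors PAX2, PAX8, LHX1 or EN1. They use glycine, taken up into the cell by the transporter SLC6A5, and GABA, made by GAD1 and GAD2.

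The 184 cells held 897819 UMIs in all, with 4252 UMIs per cell in the median and a range from 2156 to 24119. The other 9035 cells held 50810703 UMIs, with a median of 4379. Of the 184 cells, 5 lay above the 95th percentile of depth. RELN reached 1 to 28 UMIs per chosen cell (median 3.5) and NXPH1 1 to 79 (median 11). A single RELN UMI was found in 36 of the 184 cells, and a single NXPH1 UMI in 1. NXPH1 outnumbered RELN in 158 of the cells, RELN outnumbered NXPH1 in 22, and they were equal in 4. The summed share ran from 0.209% to 1.24% of a cell's UMIs, with a median of 0.348%. The nearest cells inside the threshold had 0.209% to 0.216% and the nearest outside 0.207% to 0.209%. Another 383 cells had both genes but a lower share. Of all RELN UMIs in the kept cells, 33.2% fell in the 184 cells, and of all NXPH1 UMIs 26.4%. With day 0 the chosen cells shared 1 barcode sequence and with day 3 none (0).

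Levels are given as CPM (UMIs of a gene per 1000000 UMIs), summed over a set of cells with RELN and NXPH1 left out of the total, and brackets after a level hold its exact Poisson 95% interval. A share of cells carries an exact binomial 95% interval. These intervals cover counting error only, and since there is 1 library, no test across replicates was possible and no p-value is given. A gene is called higher or lower when its ratio is at least 2, its larger level is at least 20 CPM and the intervals do not overlap. Levels are not corrected for gene length, so genes are compared between cell sets and not with each other. The 184 cells were set against all 9035 other cells, and against 1208 other cells matched on neuronal genes, whose share of UMIs in 30 pan-neuronal genes reached at least the lower quartile of the chosen cells (1.02%). That share had a median of 1.23% in the chosen cells, 1.26% in the matched cells and 0.427% in all other cells. Further sets of the same size rule are the other 233 cells of the top 3% by inhibitory transmitter genes (GAD1, GAD2, SLC32A1, SLC6A5), the other 273 of the top 3% by vesicular glutamate transporters (SLC17A6, SLC17A7, SLC17A8), and 276 cells of the top 3% by cell cycle genes.

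Against all other cells, the chosen cells had high levels of a small group of neuronal genes that the choice did not use. CACNA2D3, an auxiliary subunit of voltage-gated calcium channels, stood at 2141 CPM (2046 to 2239) against 161 CPM in the other cells, a ratio of 13.3, and 170 of the 184 cells had it. ADARB2, an RNA-binding relative of the RNA-editing deaminases, reached 6331 CPM (6168 to 6498) against 561, a ratio of 11.3, and was found in 179 cells. The 91 top 3% cells with NXPH1 alone, counted among the other cells, had ADARB2 at 3611 CPM and CACNA2D3 at 950 CPM. PLD5, a member of the phospholipase D family, reached 900 CPM (839 to 964) against 81.1. KLHL14, of the kelch-like family, was sparse at 92.8 CPM (73.9 to 115) against 7.97, with a ratio of 11.6. On GRCh38 (GENCODE 29) the genes span chr3:54122547-55074557 for CACNA2D3, chr10:1177318-1737476 for ADARB2 and chr1:242082986-242524696 for PLD5, and the counts do not separate exons from introns. In total, 437 of 8491 genes were higher (5.15%) and 974 lower (11.5%), and the median log2 ratio over all genes compared was -0.14. Because the cells were chosen from the same counts, these are descriptions and not tests.

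Other leading genes were SAMD5, at 1557 CPM against 178, and CAMK4, a calcium/calmodulin-dependent kinase, at 401 CPM against 67.1. SV2C, a synaptic vesicle glycoprotein, stood at 360 CPM against 61.6. SCML4 followed with 80.5 CPM against 11.9. Antisense partners moved with their genes: CACNA2D3-AS1 was at 73.8 CPM against 6.54, ADARB2-AS1 at 202 against 18.9 and PAX8-AS1 at 259 against 29.4. LRTM1, which lies inside CACNA2D3 on the opposite strand, was at 136 CPM against 21.0. Without a stated use of strand in counting, reads of these partners cannot be told apart. The same holds for AC005064.1, which overlaps RELN on the opposite strand and was at 83.9 CPM against 4.84.

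**Figure D1:**
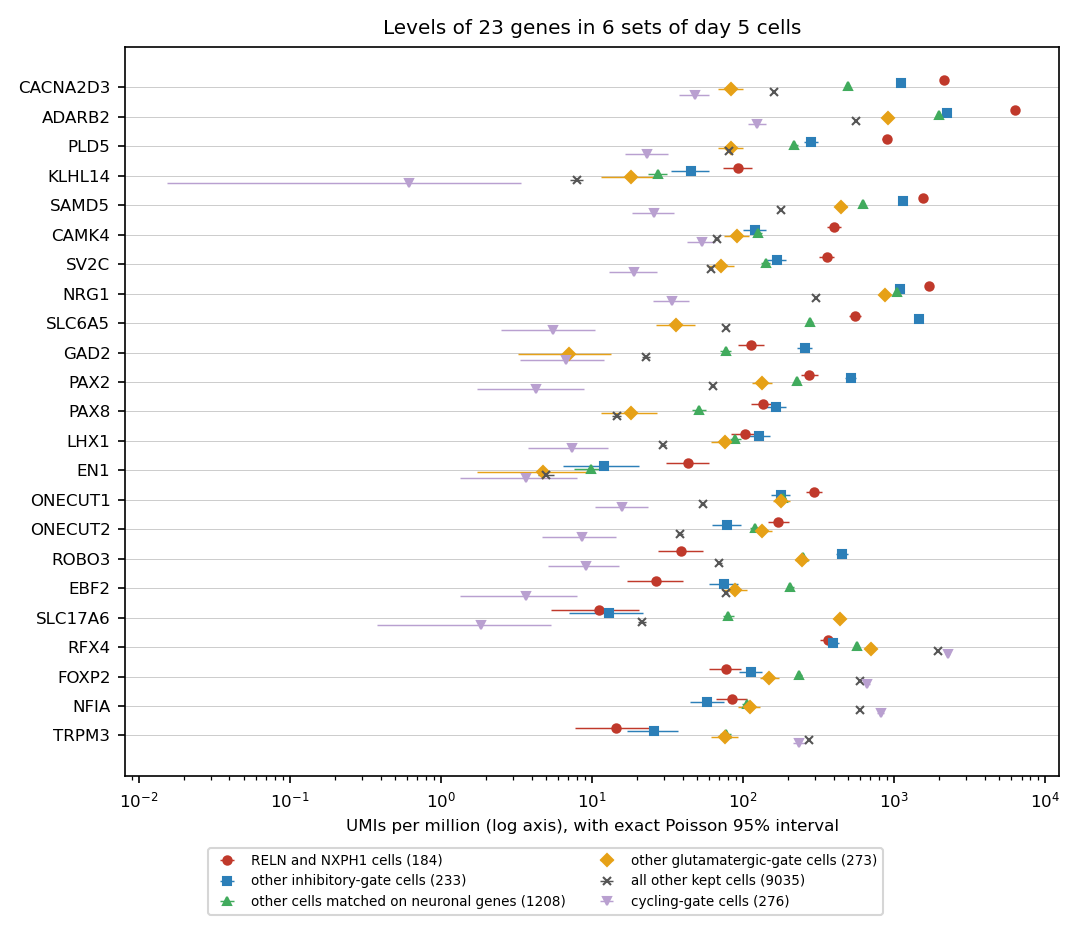
Levels of 23 genes (rows) in CPM on a log axis, with points for 6 sets of day 5 cells and bars for the exact Poisson 95% interval; a set at 0 has no point. ADARB2 reaches 6331 in the RELN and NXPH1 cells against 1975 in the matched cells, while ROBO3 stands at 39.1 against 249.

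Among inhibitory neuron genes, 4 of the 25 factors in the hindbrain and spinal list reached 20 CPM in either set, and all 4 were higher than in all other cells, while 11 of the 25 had 0 UMIs in the chosen cells. PAX8 was at 136 CPM (113 to 163) against 14.6, EN1 at 43.6 (31.0 to 59.6) against 5.00, PAX2 at 276 (243 to 313) against 63.0 and LHX1 at 104 (83.9 to 127) against 29.6. Of the genes of GABA and glycine transmission, SLC6A5 stood at 555 CPM (507 to 606) against 77.5, GAD2 at 114 against 22.8 and GAD1 at 22.4 against 7.89. The vesicular transporter SLC32A1 was at 14.5 CPM against 2.42, below the level needed for a call. The list of factors of excitatory neurons also gave higher ONECUT1, at 297 CPM against 54.1, and ONECUT2, at 172 against 38.4, and lower FOXP2, at 77.1 against 600. ONECUT factors are also found in inhibitory neurons. The neuropeptide gene TAC1, the precursor of substance P, was at 40.3 CPM against 10.1, with 9 of its 36 UMIs in 1 cell.

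Promoters are shown for 3 of the genes on which the results turn, from 250 bases before to 50 after the start of the gene, taken from RefSeq on GRCh38.p14. SLC6A5 lies at chr11:20599358-20599657 (+ strand), ADARB2 at chr10:1737476-1737775 (- strand) and PAX8 at chr2:113278872-113279171 (- strand). 3 motifs were searched on both strands: TAATTA, bound by many homeodomain factors, ATCGAT, which resembles the site of ONECUT factors, and the E-box CAGCTG, and no matches overlap in the sequences shown. Capitals mark a match. TAATTA is in 4.84%, ATCGAT in 0.763% and CAGCTG in 17.9% of 35116 promoters of the same length.
SLC6A5: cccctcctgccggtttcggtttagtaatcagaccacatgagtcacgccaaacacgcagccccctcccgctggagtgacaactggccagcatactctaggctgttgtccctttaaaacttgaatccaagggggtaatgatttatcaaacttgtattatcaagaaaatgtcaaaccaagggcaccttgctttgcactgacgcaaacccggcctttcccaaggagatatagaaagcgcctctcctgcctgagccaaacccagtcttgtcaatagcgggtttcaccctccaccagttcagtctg
ADARB2: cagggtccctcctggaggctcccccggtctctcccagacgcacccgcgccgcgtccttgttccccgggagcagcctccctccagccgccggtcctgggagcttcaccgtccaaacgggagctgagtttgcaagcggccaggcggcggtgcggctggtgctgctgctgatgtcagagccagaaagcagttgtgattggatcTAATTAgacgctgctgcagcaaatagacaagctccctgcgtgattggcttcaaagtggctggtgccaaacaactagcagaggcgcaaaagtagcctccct
PAX8: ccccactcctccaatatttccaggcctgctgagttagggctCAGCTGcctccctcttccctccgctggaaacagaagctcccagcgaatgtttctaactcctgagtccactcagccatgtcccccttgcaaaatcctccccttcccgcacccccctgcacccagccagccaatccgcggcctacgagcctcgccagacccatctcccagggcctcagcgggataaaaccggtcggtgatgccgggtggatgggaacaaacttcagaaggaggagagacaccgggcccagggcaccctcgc
ADARB2 has 1 TAATTA, PAX8 has 1 CAGCTG and SLC6A5 has none of the 3 in this window. A match is a description of the letters and not a bound site. EN1, LHX1, SAMD5, KLHL14 and NRG1 had no entry.

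Single cells showed the same genes side by side. SLC6A5 was found in 145 of the 184 cells, or 78.8% (72.2% to 84.5%), and any of GAD1, GAD2, SLC32A1 and SLC6A5 in 163 cells, or 88.6% (83.1% to 92.8%). A vesicular glutamate transporter was found in 12 cells, or 6.52% (3.42% to 11.1%), both kinds in 10 and neither in 19. To compare sets at 1 depth, each cell was thinned to 2000 UMIs, which every kept cell reached. Thinned, SLC6A5 was in 56.5% of the chosen cells (49.0% to 63.8%), 27.0% of the matched cells, 7.92% of all other cells and 1.81% of the cycling cells (0.591% to 4.18%), which should lack it. PAX2 was in 40.8% of the chosen cells (33.6% to 48.2%), 31.0% of the matched cells and 0.725% of the cycling cells. EN1 was in 8.15% of the chosen cells (4.63% to 13.1%), 1.66% of the matched cells (1.01% to 2.55%) and 1.09% of the cycling cells. SLC17A6 was in 1.09% of the chosen cells (0.132% to 3.87%) against 12.4% of the matched cells (10.6% to 14.4%). It was in 3.40% of all other cells (3.03% to 3.79%) and 3.00% of the other inhibitory-gate cells (1.22% to 6.09%). Both of these intervals overlap that of the chosen cells. Median depth was 4252 UMIs in the chosen cells and 5096 in the cycling cells. At least 2 of PAX2, PAX8, EN1, LHX1, ONECUT1 and ONECUT2 were found in 92 of the 184 thinned chosen cells (42.6% to 57.4%), 29.6% of the matched cells, 6.33% of all other cells and 47.2% of the other inhibitory-gate cells (40.7% to 53.8%), an interval that overlaps that of the chosen cells. In the other inhibitory-gate cells, thinned shares were above those of the chosen cells for PAX2, at 54.1% (47.4% to 60.6%, overlapping the chosen cells' interval), and for SLC6A5, at 93.1%, a gene that chose that set.

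**Figure D2:**
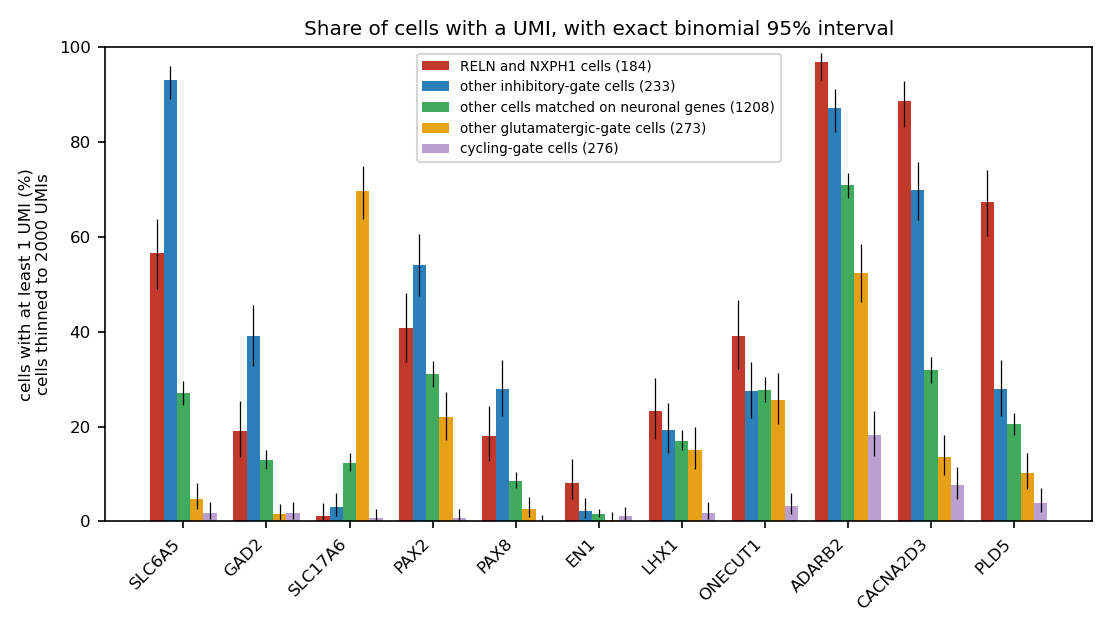
Share of cells with at least 1 UMI of 11 genes (bars, percent) after thinning each cell to 2000 UMIs, in 5 sets of day 5 cells, with exact binomial 95% intervals. SLC6A5 is in 56.5% of the RELN and NXPH1 cells and SLC17A6 in 1.09%, while the glutamatergic set has SLC17A6 in 69.6%; the inhibitory and glutamatergic sets were chosen on their transmitter genes.

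Against the matched cells the differences were fewer: of 7943 genes, 78 were higher (0.982%) and 247 lower (3.11%), with a median log2 ratio of -0.03. Of these, 64 higher and 115 lower genes were also called against all other cells. CACNA2D3 was 4.33 times its level in the matched cells (494 CPM), PLD5 4.09 times (220), ADARB2 3.21 times (1975) and CAMK4 3.20 times (125). EN1 was 4.42 times as high (9.86) and PAX8 2.65 times (51.5). SAMD5 stood at 1557 against 624 CPM. Choosing the top 3% by RELN alone took PAX8 (log2 ratio 0.86) and SAMD5 (0.97) below the limit in this comparison. SLC6A5 stood at 555 against 279 CPM, a ratio of 1.99 just under the limit of 2. PAX2 (276 against 228 CPM), LHX1 (104 against 89.3) and GAD2 (114 against 77.3) were not called. CACNB2, another calcium channel subunit, stood at 610 against 282 CPM, KCNQ5, a potassium channel, at 35.8 against 17.8 (32 UMIs in 6 cells), and CXCR4, a chemokine receptor, at 95.03 against 36.4.

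Among the genes lower than in the matched cells, SLC17A6, the main vesicular glutamate transporter of the hindbrain and spinal cord, stood at 11.2 CPM (5.36 to 20.6) against 80.2. EBF2, a helix-loop-helix factor, was at 26.8 CPM against 206 and EBF3 at 160 against 368. ROBO3, a receptor that lets commissural axons cross the midline, was at 39.1 CPM (27.3 to 54.4) against 249, and ROBO1, a receptor for the repellent SLIT, at 694 against 1957. KCNIP4, a potassium channel partner, was at 30.2 CPM against 252, SNTG1 at 123 against 855 and the adhesion gene CNTN5 at 70.4 against 463. NLGN1, a postsynaptic partner of neurexins, was at 350 CPM against 1055. CNTNAP4 gave 3 UMIs, 3.35 CPM (0.691 to 9.80), against 59.7, and ADAMTS19 was at 5.59 against 70.8. In all, 11 of 40 guidance and adhesion genes were lower and none (0) higher. Of 9 GABA and glycine receptor genes, 4 were lower: GABRB1, GABRA2, GABRA3 and GABRG3. Over all genes compared with the matched cells, 3.11% were lower, and 11.3% of those spanning over 200000 bases.

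**Figure D3:**
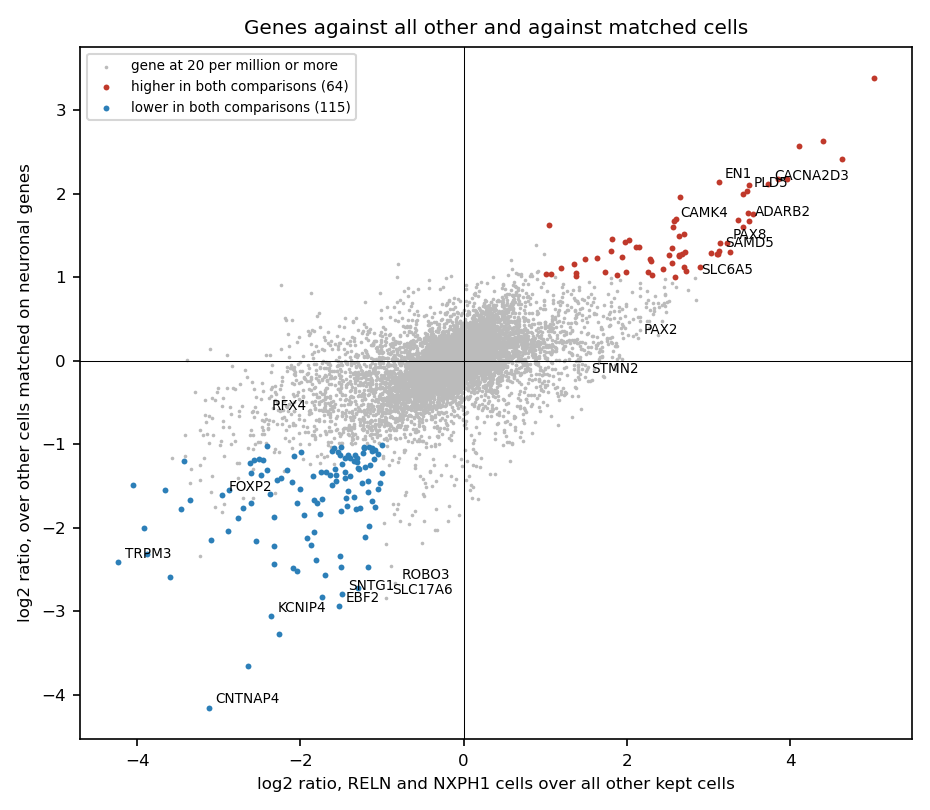
Each point is a gene at 20 CPM or more in the chosen or the other cells, with the log2 ratio of the RELN and NXPH1 cells over all other cells (x) against that over the matched cells (y). Red points are the 64 genes higher in both comparisons and blue points the 115 lower in both; CNTNAP4 lies lowest of the named genes.

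The other 233 cells of the inhibitory gate were set beside the chosen cells, leaving out the transmitter genes of that gate. This comparison was chosen after the data had been seen, and 43 of the 184 cells (23.4%) also lie in the gate, of whose 276 cells they are 15.6%. Among 8023 genes, 104 were higher (1.30%) and 144 lower (1.79%). ADARB2 stood at 6331 CPM against 2234, PLD5 at 900 against 283, CAMK4 at 401 against 120 and ONECUT2 at 172 against 78.7. EN1 was at 43.6 CPM against 12.04. Of the 6 compared factors of the inhibitory hindbrain and spinal list, 1 was higher (EN1) and 1 lower (TFAP2B), with a median log2 ratio of -0.61. The list summed to 637 CPM in the chosen cells and 960 CPM in the other inhibitory-gate cells. CACNA2D3 was at 2141 against 1112, and PAX8 at 136 against 167, both not called. ROBO3 differed most of the genes named here, at 39.1 CPM against 452. Only 3 of the 184 cells (1.63%) lay in the glutamatergic gate and 0 in the cycling gate.

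In clusters of all 9219 cells, made without RELN and NXPH1 and also set up after the data had been seen, the grouping placed 143 of the 184 cells (77.7%) in 1 cluster of 330, of which they were 43.3%. Its leading genes include AC005064.1, on the opposite strand to RELN, so the cluster is not independent of the choice. Another 28 cells (15.2%) lay in a cluster led by SLC6A5, PAX8, GAD2 and ROBO3, 11 (5.98%) in the cluster with SLC17A6 among its leading genes, and 1 each in 2 more. The other 187 cells of the leading cluster had similar levels of ADARB2 (6221 CPM against 7788 in the 143 cells), SLC6A5 (487 against 641), PAX2 (349 against 333) and EN1 (47.0 against 53.8). Within it, 18 of 7858 genes were higher in the chosen cells (0.229%) and 77 lower (0.980%). KLHL14 was called higher, at 115 CPM against 45.6, and EBF2 lower, at 10.4 against 42.7. The 41 chosen cells elsewhere differed from the 143: ADARB2 stood at 3697 CPM, PAX2 at 173 and the progenitor gene RFX4 at 694 against 182. Their median depth was 7312 UMIs against 3879; its part in these differences was not tested.

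**Figure D4:**
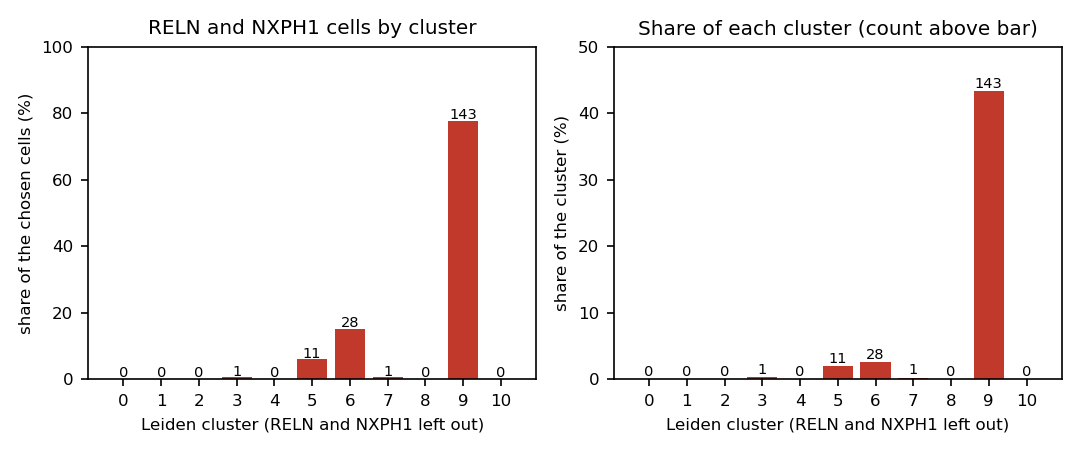
RELN and NXPH1 cells in 11 clusters (x) as a share of the 184 cells (left) and of each cluster (right), in percent, with the number of chosen cells above each bar. Cluster 9 holds 143 of them, which are 43.3% of that cluster.

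Of the 3 genes that receive the reelin signal, VLDLR was higher than in all other cells, at 30.2 CPM against 8.66, LRP8 stood at 62.6 against 41.3 and DAB1 was lower, at 277 against 681. None (0 of 3) was called against the matched cells. Of the 24 compared genes of the reelin pathway, 1 was higher and 2 were lower, shares no larger than those over all genes (5.15% and 11.5%). DCX, a microtubule protein of migrating neurons, was higher (328 against 149 CPM), and the kinase YES1 (43.6 against 88.7) and EFNB3 (44.7 against 90.6) were lower. Among the neurexins, NRXN2 was higher than in all other cells at 48.1 CPM against 14.2, and NRXN3 at 7134 against 1288. Neither was called against the matched cells, where NRXN3 was at 4523. Of the other neurexophilins, NXPH2 was at 13.4 CPM against 24.8 and NXPH4 at 7.83 against 4.39.

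Of 29 pan-neuronal genes compared, 14 were higher than in all other cells and 0 lower, with a median log2 ratio of 0.95, and these include STMN2, at 903 CPM against 322, MAP2, at 1949 against 928, and MYT1L, at 836 against 149. Of 24 synaptic vesicle genes, 9 were higher and 1, CADPS2, was lower. Among the higher ones, RIMS1 stood at 586 CPM against 169 and SYN3 at 394 against 93.4. Against the matched cells SV2C alone was called of 21. Over all genes compared, 5.15% were higher and 11.5% lower against all other cells, and 0.982% and 3.11% against the matched cells. Voltage-gated channel genes gave 9 higher and 6 lower of 25 against all other cells, and 3 higher and 9 lower of 29 against the matched cells, with a median log2 ratio there of -0.39. Progenitor genes gave 0 higher and 12 lower of 24, with RFX4 at 364 CPM against 1961 and SLC1A3 at 59.3 against 273. Cell cycle genes gave 0 higher and 21 lower of 27, with a median log2 ratio of -1.43. MKI67 and TOP2A were not among those called. In thinned cells, MKI67 was in 11.4% of the chosen cells (7.21% to 16.9%) and 10.5% of all other cells. TOP2A was in 23.9% (17.9% to 30.7%) and 28.8%. Against the matched cells, 1 of 22 progenitor genes, DACH1, and 0 of 15 cell cycle genes were called. Among genes lower than in all other cells, TRPM3, a cation channel, stood at 14.5 CPM (7.74 to 24.9) against 273, PDE1A at 21.2 against 267, the transcription factor NFIA at 85.0 against 601 and the netrin receptor UNC5C at 8.94 against 76.4.

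**Figure D5:**
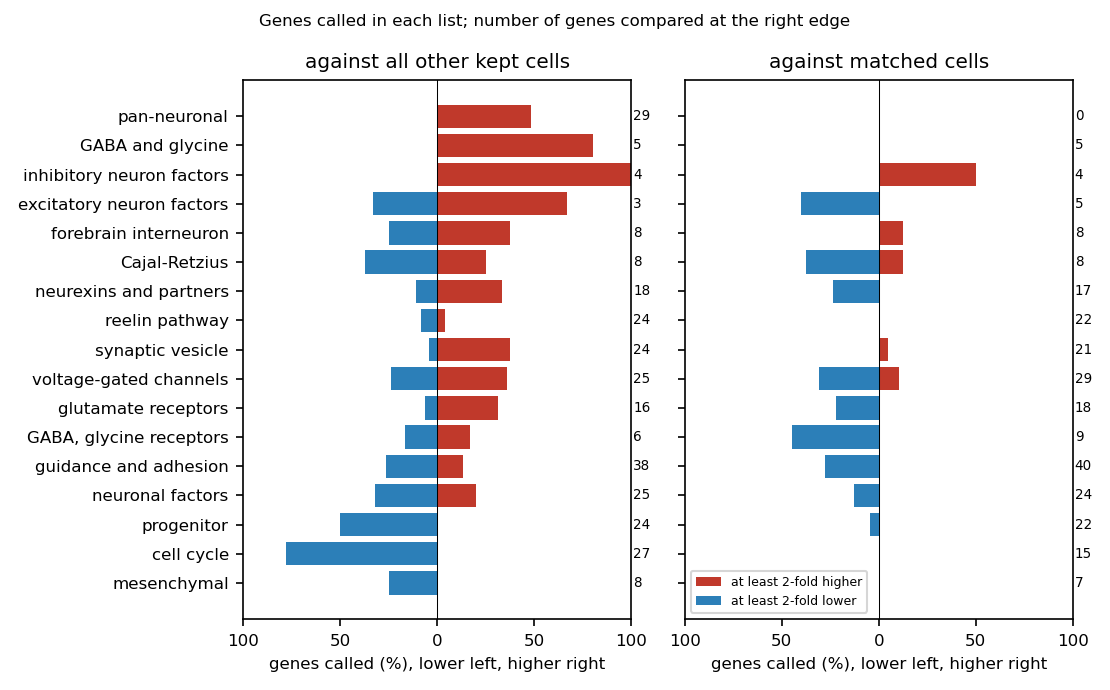
Share of the compared genes of 17 lists called at least 2-fold higher (right, red) or lower (left, blue) in the RELN and NXPH1 cells, against all other cells (left panel) and matched cells (right panel), with the number compared at the right edge. Pan-neuronal genes are left out of the matched comparison because they made the match; cell cycle genes are lower in the left panel for 21 of 27 and in the right for 0 of 15.

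Markers of the cell types for which reelin is best known went both ways. Of the Cajal-Retzius list, LHX1 was higher than in all other cells, together with CACNA2D2, while EBF2, NDNF and SAMD3 were lower. TP73, TBR1 and CALB2 had 0 UMIs, where 3 UMIs would be 3.35 CPM. Of the forebrain interneuron list, ADARB2, ERBB4 (3586 CPM against 1492) and LAMP5 (177 against 50.1) were higher and SOX6 lower, while LHX6, DLX5, DLX6 and VIP had 0 UMIs. Of the region factors, HOXB3, a hindbrain and spinal HOX gene, was higher at 210 CPM against 98.1, but lost the call in 4 of 18 alternatives, all of them other choices of the cells, and ERBB4 did so in 3. Against the matched cells, HOXB3 (160 CPM), ERBB4 (2000.1 CPM) and LAMP5 (145 CPM) were not called. The label neuron-like rests on the pan-neuronal genes, and no narrower cell type is given. Mesenchymal genes gave 0 higher and 2 lower of 8 (COL5A1 and COL5A2), with a summed level of 464 CPM in the chosen cells and 767 in all other cells, and COL1A1 gave 5 UMIs. Endothelial, blood and immune genes summed to 8.94 CPM against 11.1, with 8 of 12 at 0. Glial genes summed to 99.5 CPM against 135 and epithelial genes to 36.9 against 54.6.

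In the earlier libraries, ADARB2 gave 1 UMI on day 0 and 1 on day 3, in 248445620 and 18860346 UMIs over all deposited barcodes. PLD5, KLHL14 and SLC6A5 gave 0 in both, where 3 UMIs would be 0.0121 CPM on day 0 and 0.159 on day 3. Others were present earlier: CAMK4 had 5.90 CPM on day 0 and 27.0 on day 3, SAMD5 3.07 and 13.0, and CACNA2D3 0.213 and 25.1. The 69572 day 5 barcodes of 10 to 100 UMIs, taken as a view of free RNA in the droplets, had ADARB2 at 217 CPM and SLC6A5 at 36.2 CPM. The chosen cells had 6331 and 555 CPM, and the levels of all other cells, given above, lay between. The part of free RNA in the levels and ratios was not tested. UMIs in genes spanning over 200000 bases, which are mainly introns, made up 32.4% in the chosen cells, 30.1% in all other cells and 34.0% in the matched cells, while the part of gene length in the calls was not tested. Against all other cells, 11.3% of such genes were called higher and 22.9% lower, against 3.91% and 9.38% of shorter genes. Against the matched cells, 1.82% were called higher and 11.3% lower, against 0.785% and 1.52% of shorter genes.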

How the data were processed

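The data are UMI counts of genes in 3 single-cell libraries, 1 per group. The authors deposited raw counts per gene and barcode with no normalization, from Cell Ranger 4.0.0 on hg38 (GRCh38) per the submitters' processing notes; whether intronic reads and strand entered the counting is, for these files, not given in the sources used here. On day 5, 2037119 barcodes were deposited. The minimum of 2155 UMIs is the 99th percentile of the 10000 deepest barcodes divided by 10 and rounded up; 9304 barcodes reached it and 9219 were kept. UMIs were summed per cell set and scaled to CPM. Scrublet (scanpy 1.11.5) marked 1 of 9219 cells as a doublet, so its call was not relied on and no cell was removed. Clusters were Leiden groups (resolution 0.5, 2000 variable genes, 30 components, 15 neighbours). Named genes are the 15 largest and 15 smallest ratios per comparison at 50 CPM or more, with separate intervals and at most 10% of UMIs in 1 cell, leaving out mitochondrial, ribosomal and unnamed genes, plus up to 6 members of each list by level, and transmitter genes and transcription factors of the lists at any level. Sets under 3 UMIs were set at 3 UMIs. AC005064.1, and genes named for being called within a list or cluster or for being at 0, were chosen after their values were seen. The cells, gene lists and rules were chosen with earlier results of these data known. Some genes of the lists and of the leading genes are not reported here. Coordinates come from GENCODE 29 and RefSeq. The script was tested on simulated counts. Alternatives covered the gate, the cell filter, depth, normalization (TMM in edgeR 4.0.16, median of ratios) and the limit on low levels.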

Additional observations from a re-analysis of the deposited data

How the results depend on the processing

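Each count of genes was recomputed under 18 alternatives. No paired analysis was possible because there is 1 library per group and no replicate. Against all other cells the main counts were 437 higher and 974 lower, and against matched cells 78 and 247. With the top 1% of cells, 153 were higher and 430 lower against matched cells. With the top 5%, 557 were lower against all other cells, and 44 higher and 133 lower against matched cells. With every cell holding both genes, 318 were lower against all other cells, and 24 higher and 11 lower against matched cells. Choosing by RELN alone gave 608 lower against all other cells, and 25 higher and 128 lower against matched cells. Choosing by NXPH1 alone gave 135 lower against matched cells. With a limit of 50 CPM, 490 were lower against all other cells, and 41 higher and 130 lower against matched cells, and with no limit 697 were higher against all other cells. In cells of the middle range of depth, 127 were higher against matched cells. The other counts stayed within 1.5 times. The genes behind a stable count could still change. Against matched cells, thinning gave 96 higher and 259 lower, of which 52 and 150 were also called in the main setting. In cells of the middle range of depth 296 were lower, of which 139 were shared with the main setting. With TMM, 76 were higher and 249 lower, of which 76 and 247 were shared. Over 96 single-gene results and the 18 alternatives there were 1728 outcomes. Of these, 1658 stayed called or stayed not called, 57 lost the call and 13 gained it. Direction was compared only where a gene was called in the main setting or the alternative, and there 0 changed direction. Genes called in neither were not checked for direction. Of the 96, 60 never changed call. With every cell holding both genes, KLHL14, CAMK4, PAX8, SV2C, SAMD5, KCNIP4 and EBF2, among others, lost the call against matched cells, and with RELN alone PAX8, SV2C and SAMD5 were among those that did. SLC6A5 gained the call against matched cells in 5 settings, among them thinning (1.12 on the log2 scale). The cause was not tested. Depth limits genes of few UMIs, such as GAD1 (20 UMIs in 17 cells) and EN1 (39 UMIs in 31 cells), and counts of 0. In the chosen cells 3 UMIs would be 3.35 CPM.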
